A study of Mus musculus with 16 samples.

Results

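The genes described here carry glucose carbon through glycolysis and the citric acid cycle, in nuclei of the dentate gyrus (DG) of WT mice and of mice with the V321L missense mutation in *Nrg1*. They are 35 named genes of the 32285 genes in the deposited matrices, and were taken by symbol: 13 of glycolysis, 7 of the pyruvate step, 13 of the citric acid cycle and 2 aspartate transaminases, the cytosolic and the mitochondrial one. Each symbol was present in all 8 matrices. *Aldoa* occurs under a second gene identifier, which held 22 UMIs (unique molecular identifiers, each standing for 1 captured RNA molecule) against 7633 in gated nuclei and was left out.

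Glycolysis splits glucose in the cytosol into pyruvate. Pyruvate is either reduced to lactate or carried into mitochondria and turned into acetyl-CoA, which the citric acid cycle oxidizes, and the malate dehydrogenases and aspartate transaminases pass reducing equivalents between the compartments. In brain, aldolase C is known as a marker of astrocytes, enolase 2 as the neuronal enolase, and lactate exchange between astrocytes and neurons as a subject of long debate. All 35 proteins are encoded in the nucleus. The libraries were made from nuclei but also hold mitochondrial genome RNA and free RNA, described below. Their values are therefore not levels of transcripts before export alone.

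The mice were 4 WT (labelled VV) and 4 homozygous V321L (labelled LL) animals, 2 females (F1, F2) and 2 males (M1, M2) of each genotype. The age of these mice is not given in the labels, and the labels name no other allele or treatment. The DG was microdissected and frozen, nuclei were released with a commercial kit, and each nucleus was read for RNA and for open chromatin (ATAC) with the 10x Multiome assay, as 1 library per mouse. The mutation is present in every cell of the animal and changes 1 amino acid, so the level of *Nrg1* RNA does not check the labels.

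The WT libraries held 4326426 to 14624265 RNA UMIs and the V321L libraries 15505354 to 23582057, without overlap, and the ATAC totals overlapped (11953485 to 18352665 and 6580616 to 25552769). Filters left 16360 nuclei, of which 11396 carried enough marker UMIs to be gated into a class: 8027 granule cells (GCs), 893 other excitatory neurons, 211 GABAergic neurons, 880 astrocytes, 793 oligodendrocytes, 270 oligodendrocyte precursors (OPCs) and 322 microglia. The gate used the same marker lists, so their sums describe the gate and do not test the identity of the classes. The astrocyte list summed to 6626 to 11800 CPM (UMIs of a gene scaled to the same total in each mouse and class) in the astrocytes of a mouse and to 107 to 150 CPM in its GCs. The GC list summed to 2261 to 3991 CPM in GCs and 493 to 1102 CPM in astrocytes. Between 1 and 12 barcodes were shared by any pair of libraries, at most 0.714% of the smaller one. A WT GC held a median of 1287 to 2366 UMIs and a V321L GC 3386 to 4709. The 13 mitochondrial genome genes took 0.177% to 0.271% of the GC UMIs of WT mice and 0.406% to 1.17% of those of V321L mice, ribosomal protein genes 0.0477% to 0.116% and 0.865% to 1.84%, and *Malat1* 0.773% to 1.02% and 3.57% to 4.95%. None of these 3 ranges overlapped between the genotypes, and their part in the differences below was not tested. Genotype and the state of the library cannot be told apart here, because RNA totals and these shares separated fully by genotype and the labels name no batch.

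The promoters of 10 of the genes are shown because the results turn on them: *Tpi1*, *Aldoa*, *Aldoc*, *Pgam1* and *Mdh2* rose most in V321L GCs, *Ogdh* and *Pfkp* did not rise, and *Eno2*, *Ldha* and *Ldhb* differed in accessibility between classes. Each is the 250 bases before a start site from RefSeq (GRCm38.p6), read 5′ to 3′ on the strand of the gene. *Aldoa*, *Aldoc*, *Ldha* and *Ogdh* have further listed start sites that are not shown. Capitals mark matches, on either strand, to 9 short motifs: the E-box CACGTG, the cAMP response element TGACGTCA, the Sp1 box GGGCGG, the hypoxia response core ACGTG (which lies within the E-box), the estrogen-related receptor element TCAAGGTCA, the NRF1 element, the TATA box TATAAA, the CCAAT box and the Ets core CCGGAA.
*Tpi1* (chr6:124814159-124814408, minus strand): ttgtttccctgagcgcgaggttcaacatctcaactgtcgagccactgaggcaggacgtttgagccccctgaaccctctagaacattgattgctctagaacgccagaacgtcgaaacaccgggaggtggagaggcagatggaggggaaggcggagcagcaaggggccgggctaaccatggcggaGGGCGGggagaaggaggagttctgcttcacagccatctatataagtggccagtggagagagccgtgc
*Aldoa* (chr7:126799179-126799428, minus strand): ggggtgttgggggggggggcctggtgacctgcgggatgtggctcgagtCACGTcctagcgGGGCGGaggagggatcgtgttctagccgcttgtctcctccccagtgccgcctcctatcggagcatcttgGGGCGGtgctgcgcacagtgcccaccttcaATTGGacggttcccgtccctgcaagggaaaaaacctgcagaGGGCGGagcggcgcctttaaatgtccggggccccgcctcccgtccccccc
*Aldoc* (chr11:78322823-78323072, plus strand): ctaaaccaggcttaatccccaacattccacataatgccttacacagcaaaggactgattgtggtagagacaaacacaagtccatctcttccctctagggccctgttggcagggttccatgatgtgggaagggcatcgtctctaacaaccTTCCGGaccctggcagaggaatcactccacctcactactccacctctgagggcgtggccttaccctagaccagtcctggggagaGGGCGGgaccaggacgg
*Pgam1* (chr19:41911621-41911870, plus strand): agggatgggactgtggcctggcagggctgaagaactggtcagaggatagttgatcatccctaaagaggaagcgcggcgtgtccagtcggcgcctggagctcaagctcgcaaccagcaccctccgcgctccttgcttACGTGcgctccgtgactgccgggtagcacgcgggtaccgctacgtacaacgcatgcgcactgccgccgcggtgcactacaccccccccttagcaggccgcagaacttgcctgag
*Mdh2* (chr5:135778399-135778648, plus strand): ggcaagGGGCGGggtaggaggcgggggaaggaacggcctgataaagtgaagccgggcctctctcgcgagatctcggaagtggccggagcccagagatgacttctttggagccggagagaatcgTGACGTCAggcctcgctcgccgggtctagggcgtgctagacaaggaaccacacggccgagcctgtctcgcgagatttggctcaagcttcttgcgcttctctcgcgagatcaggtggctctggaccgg
*Ogdh* (chr11:6291347-6291596, plus strand): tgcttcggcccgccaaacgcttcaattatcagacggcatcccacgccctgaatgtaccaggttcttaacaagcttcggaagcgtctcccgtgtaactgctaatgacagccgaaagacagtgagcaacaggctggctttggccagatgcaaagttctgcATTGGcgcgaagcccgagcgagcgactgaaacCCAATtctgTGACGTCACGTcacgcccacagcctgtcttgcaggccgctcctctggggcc
*Pfkp* (chr13:6648772-6649021, minus strand): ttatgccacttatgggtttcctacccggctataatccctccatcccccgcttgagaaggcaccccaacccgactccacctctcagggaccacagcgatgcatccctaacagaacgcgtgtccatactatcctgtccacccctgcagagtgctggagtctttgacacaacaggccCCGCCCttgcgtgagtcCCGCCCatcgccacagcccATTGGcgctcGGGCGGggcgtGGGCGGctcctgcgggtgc
*Eno2* (chr6:124769674-124769923, minus strand): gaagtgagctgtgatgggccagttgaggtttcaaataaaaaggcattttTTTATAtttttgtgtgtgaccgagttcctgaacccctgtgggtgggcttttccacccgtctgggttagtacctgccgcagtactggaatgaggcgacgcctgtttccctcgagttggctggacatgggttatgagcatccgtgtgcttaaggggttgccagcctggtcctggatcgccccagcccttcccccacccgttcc
*Ldha* (chr7:46845554-46845803, plus strand): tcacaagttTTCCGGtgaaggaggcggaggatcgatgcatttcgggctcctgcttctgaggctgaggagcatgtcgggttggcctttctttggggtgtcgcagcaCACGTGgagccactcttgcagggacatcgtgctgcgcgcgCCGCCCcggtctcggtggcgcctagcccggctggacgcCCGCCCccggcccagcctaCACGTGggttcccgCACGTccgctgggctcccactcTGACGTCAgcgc
*Ldhb* (chr6:142507958-142508207, minus strand): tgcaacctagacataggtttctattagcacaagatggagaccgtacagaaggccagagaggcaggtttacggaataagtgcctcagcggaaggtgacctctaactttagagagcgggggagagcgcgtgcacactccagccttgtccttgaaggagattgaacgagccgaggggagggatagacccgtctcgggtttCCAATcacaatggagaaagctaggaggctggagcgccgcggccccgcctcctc

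RefSeq gave 51 start sites for 34 of the 35 genes. The Sp1 box was found in 25 of these 51 promoters (21 genes) and in 32.7% of all 32851 mouse promoters of this length. The hypoxia response core was present in 17 of the 51 (10 genes) against 16.6% of all, and the CCAAT box in 22 of the 51 (17 genes) against 33.8%. The E-box stood in 5 of the 51, from *Pfkm*, *Ldha* and *Ogdh* (6.02% of all promoters), and the cAMP response element in 5, from *Ldha*, *Ogdh* and *Mdh2* (1.55% of all). Windows of close start sites overlap, as in *Ogdh*, where the same E-box and the same cAMP response element were counted more than once. The promoter counts are therefore not counts of separate sites. Both *Ldha* E-boxes and its cAMP response element are in the sequence above, and so is the cAMP response element of *Mdh2*. The TATA box occurred in *Eno2* and *Got2* (12.4% of all), the Ets core in 7 promoters (12% of all), and the estrogen-related receptor and NRF1 elements in none (0.387% and 0.782% of all). The gene promoters held a median of 59.2% G and C against 52.4% for all promoters. These are letter matches in one window and say nothing about binding.

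The first comparison asked how the RNA of these genes differed between V321L and WT mice in GCs, the principal neurons of the DG. UMIs were summed over the GCs of each mouse, and values are given in the order F1, F2, M1, M2 as CPM. All 35 genes passed the filter on low counts. With the quasi-likelihood test of edgeR and Benjamini-Hochberg adjustment over 11929 genes, 29 of the 35 rose in V321L GCs, 1 fell and 5 were not called, where 39.3% of all tested genes rose and 30.9% fell. The median difference of the 35 was 1.48 on the log2 scale and that of all tested genes 0.13. In plain CPM, 33 of the 35 were higher in all 4 V321L mice than in all 4 WT mice, as were 48.4% of all tested genes, and *Pfkp* and *Ogdh* overlapped. Scaled to library sizes alone, the median of all genes moved to 0.58, and 6531 genes rose and 2018 fell, against 4688 and 3682 with the TMM scaling used throughout; 33 of the 35 genes then rose and none fell. The 35 genes together took 0.0871%, 0.0748%, 0.102% and 0.0849% of the GC UMIs of the WT mice and 0.369%, 0.25%, 0.242% and 0.392% of those of the V321L mice. V321L F1 and M2 had the higher values, and the same 2 libraries had the highest mitochondrial and ribosomal protein shares.

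**Figure D1:**
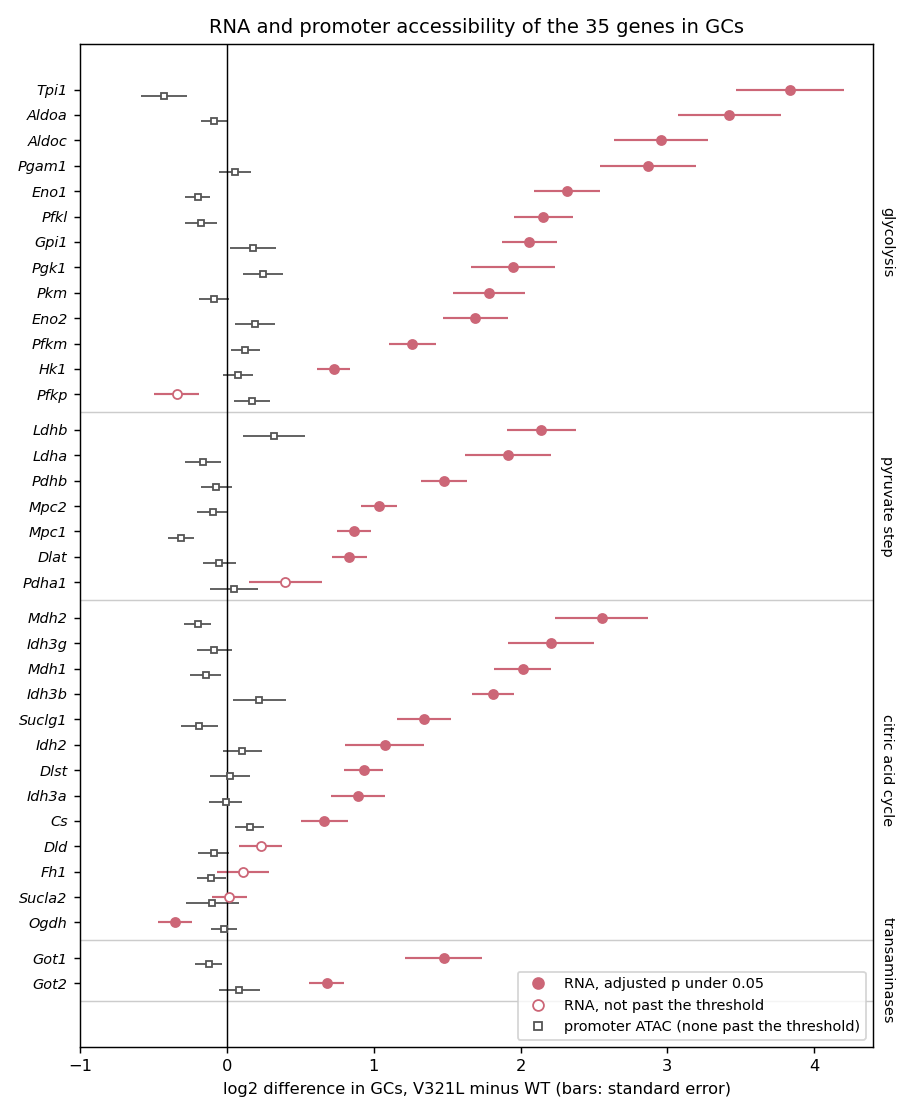
Log2 difference between V321L and WT GCs (x axis, mean ± SE from edgeR, 4 mice per genotype) for each of the 35 genes, as RNA (dots, filled where the adjusted p is under 0.05) and as promoter accessibility (squares). RNA differences reached from -0.35 to 3.84, and all promoter differences lay between -0.43 and 0.32.

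In glycolysis, 12 of the 13 genes rose, with a median of 2.06. *Tpi1*, triosephosphate isomerase, which interconverts the products of aldolase, had the largest rise of the 35: it read 6.29, 3.86, 9.47 and 6.26 CPM in WT and 168, 71.9, 64.0 and 162 CPM in V321L GCs. The lowest V321L mouse was well above the highest WT mouse, and the difference was 3.84 ± 0.37 (log2 ± SE, adjusted p = 8.57e-07, edgeR), or 14.3-fold. *Aldoa*, the aldolase that most tissues use to split fructose bisphosphate, read 31.4, 16.5, 59.7 and 20.5 CPM in WT and 560, 256, 254 and 595 CPM in V321L. Its groups did not overlap either, and it rose by 3.42 ± 0.35 (adjusted p = 1.40e-06, edgeR). *Aldoc*, the astrocyte-enriched aldolase, read 3.14, 5.66, 5.68 and 5.91 CPM in WT and 70.5, 41.3, 32.4 and 76.6 CPM in V321L GCs, a rise of 2.96 ± 0.32 (adjusted p = 2.17e-06, edgeR). Its mean level in free RNA, the RNA of barcodes with at most 100 UMIs, was 264 CPM in WT and 744 CPM in V321L libraries. The free RNA share of GCs estimated below, applied to these means, exceeds the GC values of *Aldoc* in both genotypes. *Tpi1* had mean levels of 87.3 CPM in the free RNA of WT and 471 CPM in that of V321L libraries, and *Aldoa* 388 and 1745 CPM. With the share of each mouse, free RNA would exceed the WT GC values of both genes and stay below the V321L ones. The part of free RNA in these 3 rises was not tested. All 3 were highest in V321L F1 and M2.

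*Pgam1*, phosphoglycerate mutase, rose by 2.87 ± 0.33, from 6.69 to 13.3 CPM over the WT mice to 54.9 to 141 CPM over the V321L mice. Of the enolases, *Eno1* read 7.34, 4.89, 13.3 and 6.96 CPM in WT and 50.8, 45.2, 38.7 and 63.7 CPM in V321L (2.32 ± 0.22, adjusted p = 8.91e-07, edgeR). *Eno2*, the neuronal enolase, read 21.0, 11.3, 30.3 and 17.4 CPM against 97.0, 66.4, 61.1 and 102 CPM (1.69 ± 0.22, adjusted p = 1.20e-05, edgeR). Both enolases were higher in every V321L mouse than in any WT mouse, and the Eno1 pseudogenes that the mouse genome carries leave the *Eno1* count less certain. *Gpi1*, which makes fructose 6-phosphate, rose by 2.06 ± 0.19, *Pgk1*, a kinase that makes ATP, by 1.95 ± 0.29, and *Pkm*, the pyruvate kinase of brain, by 1.79 ± 0.25. *Hk1*, the hexokinase that commits glucose to the pathway, had the smallest called rise of glycolysis: it read 31.1, 29.9, 32.2 and 33.4 CPM in WT and 74.6, 69.2, 66.5 and 76.6 CPM in V321L (0.73 ± 0.11, adjusted p = 5.18e-05, edgeR).

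The 3 phosphofructokinase genes, whose products form the tetramers of the main regulated step of glycolysis, did not move alike. *Pfkl*, the liver-type subunit, read 9.78, 8.49, 23.7 and 10.8 CPM in WT and 73.0, 63.0, 71.1 and 75.5 CPM in V321L (2.15 ± 0.20, adjusted p = 6.44e-07, edgeR). *Pfkm*, the muscle-type subunit, read 25.2, 14.7, 18.9 and 16.3 CPM against 63.0, 60.8, 52.6 and 68.9 CPM (1.26 ± 0.16, adjusted p = 9.02e-06, edgeR). *Pfkp*, the platelet-type subunit, read 39.5, 30.9, 24.6 and 33.0 CPM against 35.6, 33.6, 33.8 and 38.9 CPM. The *Pfkp* groups overlapped, and its difference of -0.34 ± 0.15 was not called (adjusted p = 0.0596, edgeR). The call depended on the settings: with the scaling of DESeq2 *Pfkp* was at -0.45 (adjusted p = 0.0212, edgeR), and without WT M1 at -0.51 (adjusted p = 0.00323, edgeR). *Pfkp* made up 53.1%, 57.1%, 36.6% and 54.9% of the *Pfkl*, *Pfkm* and *Pfkp* UMIs of WT GCs and 20.7%, 21.3%, 21.5% and 21.2% of those of V321L GCs. The mean shares differed by 29.2 percentage points, with an exact two-sided permutation p of 0.0286, the smallest that 4 against 4 mice can give, and 0.12 after adjustment over the 42 isozyme shares compared.

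**Figure D2:**
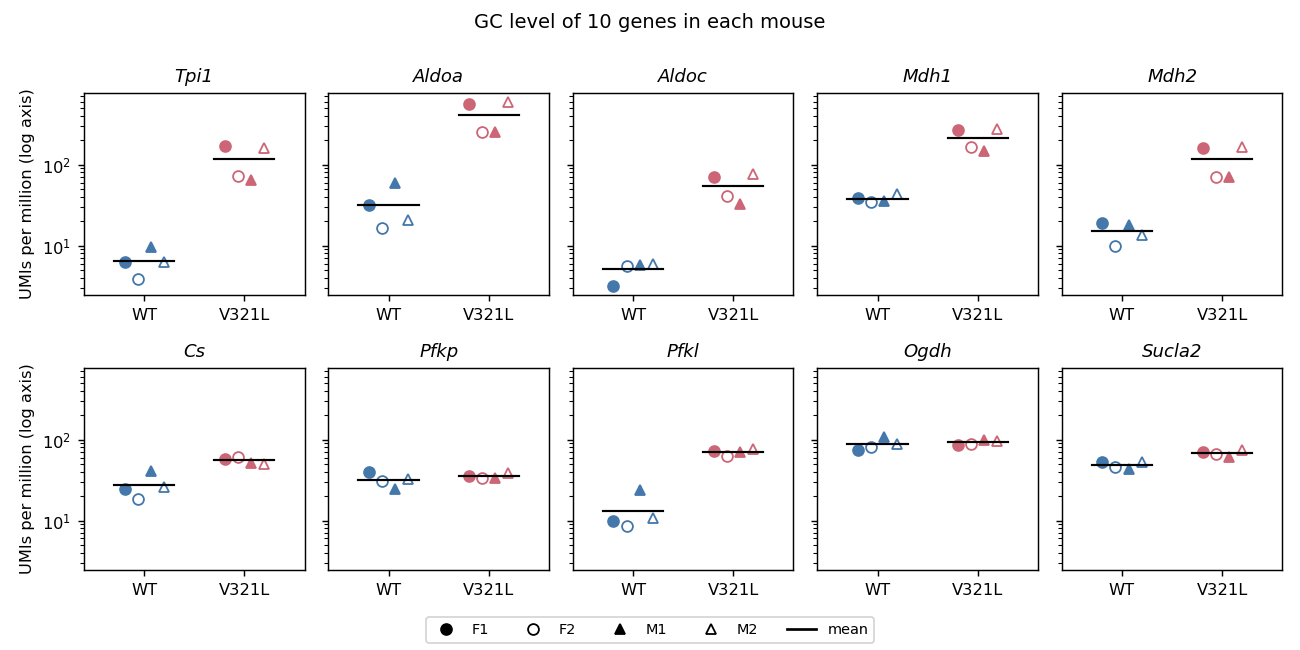
CPM in GCs of each mouse (y axis, log scale; dots are mice, lines group means, 4 WT and 4 V321L) for 10 of the genes. *Tpi1*, *Aldoa* and *Aldoc* show no overlap between genotypes, and *Pfkp* and *Ogdh* overlap.

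At the pyruvate step, 6 of the 7 genes rose, with a median of 1.03. *Ldhb*, the lactate dehydrogenase subunit of oxidative tissues, read 16.1, 15.7, 30.3 and 15.3 CPM in WT and 131, 81.2, 77.3 and 145 CPM in V321L GCs (2.14 ± 0.24, adjusted p = 2.49e-06, edgeR). *Ldha*, the subunit of lactate-forming tissues, read 9.78, 5.66, 10.4 and 7.31 CPM against 52.1, 28.0, 26.7 and 58.9 CPM (1.92 ± 0.29, adjusted p = 4.80e-05, edgeR). The *Ldhb* share of the pair was 69.4% ± 5.69 (SD, n = 4) in WT and 72.9% ± 1.72 in V321L GCs, a difference of 3.41 points (exact permutation p = 0.343). *Mpc1* and *Mpc2*, which together form the mitochondrial pyruvate carrier, rose by 0.87 ± 0.12 and 1.03 ± 0.12, with WT values of 55.6 to 66.3 and 56.8 to 67.1 CPM and V321L values of 118 to 163 and 150 to 193 CPM. After subtraction of free RNA *Mpc2*, whose mean level in free RNA was 3.13 higher on the log2 scale in V321L than in WT libraries, was no longer called (0.33, adjusted p = 0.0723, edgeR). Within the pyruvate dehydrogenase complex, *Pdhb* (E1 beta) rose by 1.48 ± 0.16 and *Dlat* (E2) by 0.83 ± 0.12. *Pdha1* (E1 alpha) read 14.0, 7.21, 13.3 and 10.8 CPM in WT and 26.5, 14.3, 15.1 and 24.1 CPM in V321L. The lowest V321L mouse was just above the highest WT mouse, and the scaled difference of 0.40 ± 0.25 was not called (adjusted p = 0.170, edgeR). It was called higher with library sizes alone (0.85, adjusted p = 0.0128), without the low-count filter (0.51, adjusted p = 0.0406) and after free RNA subtraction (2.64, adjusted p = 0.0150).

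In the citric acid cycle, 9 of the 13 genes rose, 1 fell and 3 were not called, with a median of 0.93. *Mdh2*, the mitochondrial enzyme that closes the cycle, read 18.9, 9.78, 18.0 and 13.6 CPM in WT and 163, 69.9, 70.5 and 166 CPM in V321L (2.55 ± 0.32, adjusted p = 7.25e-06, edgeR). *Mdh1*, its cytosolic partner in the malate-aspartate shuttle, read 39.1, 34.7, 36.0 and 42.8 CPM against 265, 164, 147 and 275 CPM (2.01 ± 0.20, adjusted p = 8.91e-07, edgeR). The groups of both were far apart, and V321L F1 and M2 were again the highest.

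The 3 subunits of the NAD-dependent isocitrate dehydrogenase rose by different amounts. The regulatory subunit *Idh3g* read 6.99, 3.60, 14.2 and 5.57 CPM in WT and 44.3, 30.0, 33.3 and 56.3 CPM in V321L (2.20 ± 0.29, adjusted p = 1.33e-05, edgeR). *Idh3b* read 19.6, 19.0, 22.7 and 25 CPM against 117, 86.4, 93.5 and 117 CPM (1.81 ± 0.14, adjusted p = 2.06e-07, edgeR). The catalytic *Idh3a* read 17.1, 15.2, 16.1 and 19.1 CPM against 55.5, 37.6, 31.8 and 48.9 CPM (0.89 ± 0.19, adjusted p = 6.47e-04, edgeR). None of the 3 overlapped between genotypes. *Idh2*, the mitochondrial NADP-dependent enzyme, rose by 1.07 ± 0.27 from a low level of 2.44 to 5.68 CPM. *Cs*, citrate synthase, which starts the cycle, read 24.5, 18.3, 40.7 and 26.1 CPM in WT and 57.4, 61.2, 52.0 and 50.3 CPM in V321L (0.66 ± 0.16, adjusted p = 0.00208, edgeR), and lost its call when GCs were thinned to 1000 UMIs (0.41, adjusted p = 0.125, edgeR).

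*Ogdh*, the E1 component of the 2-oxoglutarate dehydrogenase complex, was called lower, alone among the 35 in this fit. It read 74.4, 82.1, 107 and 88.4 CPM in WT and 85.5, 88.3, 98.9 and 97.4 CPM in V321L, so that the groups overlapped and the plain CPM did not fall. After TMM scaling the difference was -0.35 ± 0.12 (adjusted p = 0.0135, edgeR), and with library sizes alone it was 0.09. The call was also lost without the low-count filter (-0.23, adjusted p = 0.190), after thinning (-0.33, adjusted p = 0.0584) and after free RNA subtraction (-0.27, adjusted p = 0.0695), all with edgeR. The E2 component *Dlst* rose by 0.93 ± 0.13. *Dld*, the E3 component that the complexes share, differed by 0.23 ± 0.15 (adjusted p = 0.176, edgeR), the succinyl-CoA ligase subunit *Sucla2* by 0.02 ± 0.12 (adjusted p = 0.912) and fumarase *Fh1* by 0.11 ± 0.18 (adjusted p = 0.591). In CPM the lowest V321L mouse was above the highest WT mouse for each of these 3: *Sucla2*, for example, read 53.4, 45.8, 43.6 and 52.9 CPM against 71.1, 66.0, 61.4 and 75.1 CPM. With library sizes alone all 3 were called higher (0.69, 0.47 and 0.57 for *Dld*, *Sucla2* and *Fh1*), and *Dld* also after free RNA subtraction (0.51). *Suclg1*, the shared alpha subunit of the ligase, rose by 1.34 ± 0.18.

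Both transaminases of the malate-aspartate shuttle rose. The cytosolic *Got1* read 19.6, 18.3, 25.6 and 11.8 CPM in WT and 84.5, 51.4, 44.4 and 98.1 CPM in V321L (1.48 ± 0.26, adjusted p = 1.84e-04, edgeR), and the mitochondrial *Got2* 33.2, 30.6, 33.1 and 32.7 CPM against 81.7, 65.1, 67.1 and 70.3 CPM (0.68 ± 0.12, adjusted p = 1.58e-04, edgeR). The groups of neither gene overlapped.

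The size of the rise followed the length of the gene. Across the 35 genes the log2 difference in GCs and the log10 gene length had a Pearson r of -0.76 and a Spearman rho of -0.70, and across the 11316 tested genes with a RefSeq length r was -0.70. These are correlations across genes of the same 8 libraries and genes are not independent replicates. The 12 genes under 15 kb had a median of 2.26, where 3484 tested genes of that length had 1.43, and the 23 longer ones a median of 0.93, where 7832 genes had -0.20. In each of 8 length classes the median of the listed genes was above that of all tested genes of that length, but several classes held only 1 or 2 of the listed genes. From 50 to 100 kb, where the 2 listed genes were *Ogdh* and *Pfkp*, the medians were nearly equal (-0.35 and -0.36). *Hk1*, which spans 111 kb, rose by 0.73, while the 1937 tested genes of 100 kb or more had a median of -0.82. The genotypes also differed in free RNA, the RNA of barcodes with at most 100 UMIs, which mostly hold no nucleus. There 23 of the 35 genes were higher in all 4 V321L libraries than in all 4 WT libraries and 2 were lower. The share of all genes that did so in free RNA was not measured (in GCs 48.4% of tested genes were higher without overlap), so the count describes the 35 alone. The log2 ratio in free RNA correlated with the difference in GCs with r = 0.64 over the 35 genes. *Aldoa* had 301 to 493 CPM in the free RNA of WT libraries and 1413 to 2072 CPM in that of V321L libraries, above its level in GCs of the same genotype. Free RNA made up an estimated 15.4% to 19.9% of the UMIs of WT GCs and 11.7% to 19.0% of those of V321L GCs, read from the markers of other classes. For *Aldoc* this share would take away more UMIs than GCs held in both genotypes. With the mean free RNA of WT libraries it would do so in WT GCs for *Tpi1*, *Aldoa*, *Pgam1* and *Eno1*, among others. The share was thus too high for at least these genes. Results after free RNA subtraction, here and in other classes, rest on shares estimated in this way. After subtraction of free RNA 29 of 34 genes rose in GCs and none fell. Where the amount to subtract exceeded the count of a gene, no UMI was left, so low WT counts make part of these rises by construction. *Pdha1*, for example, was at 0.40 before and at 2.64 after subtraction. The count therefore does not show whether the rises are independent of free RNA, and no share of all genes is given beside it.

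**Figure D3:**
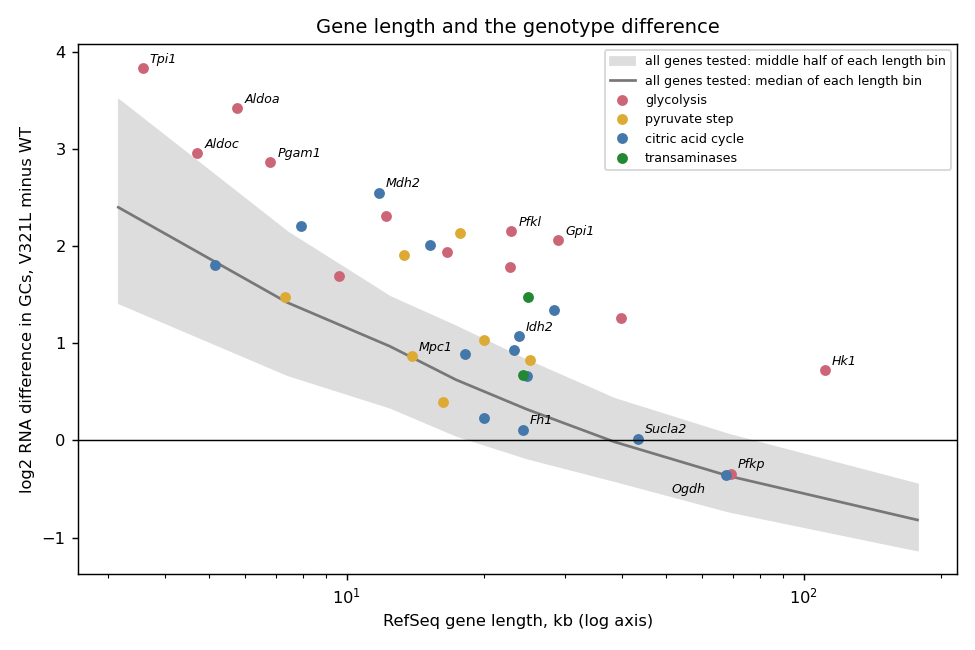
Gene length in RefSeq (x axis, kb, log scale) against the log2 difference between V321L and WT GCs (y axis) for the 35 genes (dots), with the median (line) and middle 50% (band) of all tested genes in length classes. The dots fall with length from 3.84 to -0.35, and most lie above the line.

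Of 49 further genes of the pathways, taken by a fixed list, 36 were tested in GCs. Of these 13 rose and 13 fell, with a median of 0.03, where 39.3% of all tested genes rose and 30.9% fell. The largest rises were those of *Slc25a11*, the mitochondrial carrier of malate and 2-oxoglutarate (3.67 ± 0.38), *Gapdh*, the dehydrogenase that follows *Tpi1* (3.57 ± 0.35), and the muscle mutase *Pgam2* (3.56). *Gapdh* read 27.6, 14.7, 54.9 and 20.9 CPM in WT and 556, 264, 260 and 617 CPM in V321L, without overlap. Its many processed pseudogenes make its count less certain. The largest falls were those of *Suclg2*, the GTP-specific ligase subunit (-1.30), *Slc16a7*, the monocarboxylate transporter of neurons (-1.10), and *Hif1a*, the hypoxia-inducible transcription factor (-0.83). *Slc16a7* read 258, 261, 260 and 291 CPM in WT and 154, 185, 170 and 168 CPM in V321L, again without overlap.

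The same comparison was made in the other classes, where far fewer UMIs per mouse were available. Genes can pass the filter on low counts through the V321L mice alone. The share of tested genes that rose is therefore fixed in part by the filter and is given as a description. How many genes passed in this way was not counted. Summed UMIs were higher in every V321L mouse than in any WT mouse in GABAergic neurons, oligodendrocytes and OPCs. They overlapped in astrocytes and in other excitatory neurons (241804 to 854001 in WT and 367948 to 831015 in V321L). In other excitatory neurons 31 of the 35 genes were tested, 23 rose and none fell, where 23.4% of 6360 genes rose and 21.4% fell. *Aldoa* read 33.1, 10.5, 37.2 and 15.3 CPM in WT and 492, 195, 126 and 535 CPM in V321L (3.62 ± 0.53, adjusted p = 3.27e-04, edgeR). *Ldhb* read 7.09, 4.68, 4.14 and 17 CPM against 103, 94.9, 103 and 110 CPM (3.21 ± 0.34, adjusted p = 8.70e-05, edgeR). *Tpi1* rose by 3.66 ± 0.60, and *Aldoc* by 4.29 ± 0.49 on only 4 WT UMIs against 112. *Pfkp* read 92.1, 94.8, 99.3 and 98.6 CPM in WT and 114, 80.3, 178 and 95.7 CPM in V321L neurons, with overlapping groups (-0.03 ± 0.25, adjusted p = 0.944, edgeR), and *Ogdh* (-0.11 ± 0.16) and *Dld* (-0.34 ± 0.23) were not called either. In CPM 25 of all 35 genes were higher in V321L without overlap, against 28.9% of tested genes, and 10 overlapped. Thinned to 1000 UMIs per nucleus, 4 of the genes could be tested and 1 rose, a count given without a share of all genes.

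In astrocytes 19 of the genes were tested and 16 rose, where 23.3% of 3005 genes rose and 14.0% fell. *Aldoc*, which defines the class in many atlases but was not used in its gate, read 85.5, 114, 90.1 and 56.9 CPM in WT and 692, 667, 320 and 449 CPM in V321L astrocytes (2.78 ± 0.33, adjusted p = 4.77e-05, edgeR). *Ldhb* read 142, 114, 90.1 and 71.1 CPM against 412, 349, 210 and 376 CPM (1.83 ± 0.30, adjusted p = 3.68e-04, edgeR). Neither overlapped between genotypes. *Gpi1* rose by 2.92 ± 0.37, *Mdh1* by 2.57 ± 0.38 and *Pfkm* by 2.41 ± 0.37, and *Mdh2* had 1 UMI in WT and 96 in V321L astrocytes. *Pfkp* (0.68 ± 0.40), *Ogdh* (0.10 ± 0.29) and *Sucla2* (-0.14 ± 0.29) were not called. Over all 35 genes 14 were without overlap and higher in V321L, against 18.6% of tested genes. Free RNA was estimated at 25% to 47.4% of the UMIs of WT and 16.8% to 26.9% of those of V321L astrocytes. After its subtraction 4 of 7 testable genes rose. The loss of low WT counts through subtraction, described for GCs, applies here too. No share of all genes is given beside this count, so it describes the listed genes alone.

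GABAergic neurons numbered 15 to 36 per mouse, and 7 of the genes were tested there. *Aldoa*, *Tpi1*, *Gpi1*, *Ldhb* and *Mdh1* rose, by 2.96, 2.56, 2.09, 1.97 and 1.62, where 13.4% of 2286 genes rose and 8.53% fell. *Mdh1*, for example, read 124, 75.8, 231 and 79.2 CPM in WT and 456, 311, 284 and 237 CPM in V321L neurons. *Pfkl*, *Aldoc* and *Idh3g* had no UMI in WT GABAergic neurons and 21, 43 and 26 in V321L ones, which made them at least 2.77-, 5.96- and 3.44-fold higher against a floor of 3 UMIs for the WT group. In oligodendrocytes 6 genes were tested, and *Aldoa* (3.56), *Pkm* (2.53), *Mdh1* (2.50) and *Mpc2* (1.21) rose, where 19.9% of 2464 genes rose and 10.8% fell. *Mdh1* read 23.5, 56.3, 38.4 and 29.1 CPM in WT and 267, 133, 107 and 256 CPM in V321L oligodendrocytes, without overlap. *Tpi1* had no UMI in WT and 62 in V321L oligodendrocytes (at least 5.46-fold), and *Idh3g* none and 35 (at least 3.09-fold).

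These counts were less firm than those of GCs. In GABAergic neurons the 5 calls among 7 tested genes became 8 among 17 without WT F2 and 8 among 16 without WT M1. They became 3 among 6 without V321L F2 and 3 among 5 without V321L M2. In oligodendrocytes the 4 calls among 6 tested genes became 7 among 14 without WT M1 and 7 among 15 without WT M2. Without V321L F1 or F2 only 1 gene was tested and called, and without V321L M1 or M2 there was 1 call among 2. The number of genes tested thus moved with the calls. WT M1 held 21 oligodendrocytes, with free RNA estimated at 81.6% of their UMIs. After subtraction of free RNA no gene of the list was called in oligodendrocytes or GABAergic neurons, where only 1 could be tested in each. None of the 35 could be tested in OPCs, where *Aldoa* had no UMI in WT and 65 in V321L mice (at least 8.66-fold), *Pgam1* none and 25 (at least 3.46-fold) and *Tpi1* none and 20 (at least 2.76-fold). Microglia were not tested because WT M1 gave 5 nuclei. *Aldoa* had no UMI in WT and 101 in V321L microglia, and *Ldhb* none and 71.

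Whether the rise differed between classes was tested directly, with a genotype-by-class term against GCs over 6517 genes, of which 31 were in the list. The edgeR test called 0 of the 31 in each of the 5 classes, where it called 2.52% of all genes in other excitatory neurons, 0.353% in GABAergic neurons, 0.414% in astrocytes, 1.12% in oligodendrocytes and 0.798% in OPCs. At an unadjusted p under 0.05 there were 3, 2, 2, 0 and 2 of the 31 in these classes. Of all 6517 genes 775, 706, 702, 974 and 1026 were under this limit. The lowest adjusted p of the listed genes was between 0.147 and 0.472. Without WT F2 or without WT M2, 1 gene was called in other excitatory neurons. Ribosomal protein genes were called higher in V321L without exception where they could be tested, 81 of 81 in GCs, 79 of 79 in other excitatory neurons, 18 of 18 in GABAergic neurons, 54 of 54 in astrocytes and 50 of 50 in oligodendrocytes.

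**Figure D4:**
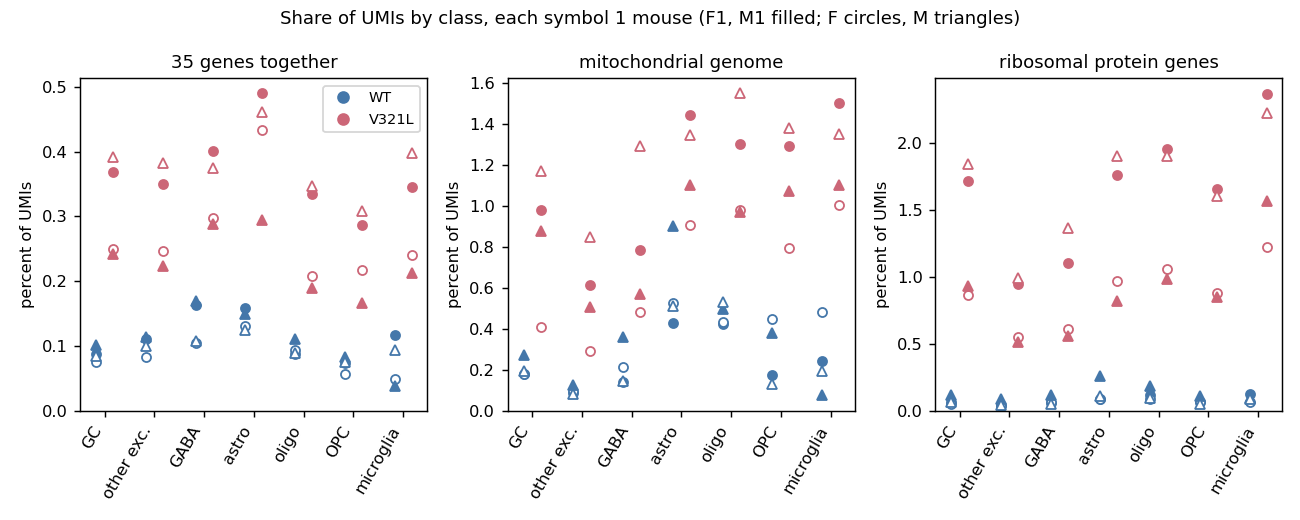
Percent of RNA UMIs (y axes, linear from 0) taken by the 35 genes, the mitochondrial genome and ribosomal protein genes in each gated class (x axis), with 1 symbol per mouse (4 WT, 4 V321L; circles females, triangles males). In GCs the 35 genes took 0.0748% to 0.102% in WT and 0.242% to 0.392% in V321L, and the other gene groups were also higher in V321L.

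The second comparison set the classes side by side within the same mice, with mouse as a term, and 31 of the 35 genes could be tested (not *Pdha1*, *Idh2*, *Idh3g* and *Fh1*). In astrocytes 8 of the 31 were higher than in GCs and 3 lower, where 25.7% of 6517 genes were higher and 29.6% lower, so the share of genes called was below that of all genes. *Aldoc* was 10.8-fold higher in astrocytes, from 56.9 to 114 CPM against 3.14 to 5.91 CPM in WT and from 320 to 692 CPM against 32.4 to 76.6 CPM in V321L mice (3.43 ± 0.20, adjusted p = 4.62e-21, edgeR). It was above the GC level in all 8 mice. *Ldhb* was also higher in astrocytes than in GCs in all 8 mice (1.85 ± 0.20, adjusted p = 1.96e-11, edgeR). *Pfkp* read 228, 69.7, 0 and 99.6 CPM in WT and 158, 203, 156 and 146 CPM in V321L astrocytes, above the GCs of the mouse in 7 of 8 (1.95 ± 0.22, adjusted p = 3.78e-11, edgeR). *Cs* read 104, 88.8, 135 and 64.0 CPM and 129, 168, 174 and 118 CPM, above GCs in all 8 mice (1.43 ± 0.18, adjusted p = 1.39e-09, edgeR).

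The enolases changed in opposite directions between these classes. *Eno1* was higher in astrocytes than in GCs (1.26 ± 0.24, adjusted p = 9.12e-06, edgeR), and *Eno2* read 19.0, 19.0, 0 and 21.3 CPM in WT and 22.1, 17.5, 0 and 72.9 CPM in V321L astrocytes and was lower than in GCs (-1.29 ± 0.29, adjusted p = 1.72e-04, edgeR). *Suclg1* (0.99 ± 0.20), *Ldha* (0.87 ± 0.24) and *Pfkm* (0.77 ± 0.23) were higher and *Pfkl* (-0.93 ± 0.32) and *Mpc2* (-0.41 ± 0.16) lower in astrocytes. The *Aldoc* share of the aldolase UMIs was 63.4% ± 10.8 (SD, n = 8) in astrocytes and 14.2% ± 6.30 in GCs, higher in 8 of 8 mice, with an exact sign-flip p of 0.00781, the smallest that 8 mice can give, and 0.0820 after adjustment over the 42 shares. The astrocyte shares of WT F1, F2, M1 and M2 rested on 11, 27, 4 and 13 aldolase UMIs. The other shares compared did not pass the adjusted threshold either. An exact test over so few mice could pass it only if many shares reached the smallest p, so no conclusion is drawn from this. After subtraction of free RNA 16 of the genes could be tested in this comparison, of which 6 were higher in astrocytes and 2 lower. This count too stands without a share of all genes and describes the listed genes alone.

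**Figure D5:**
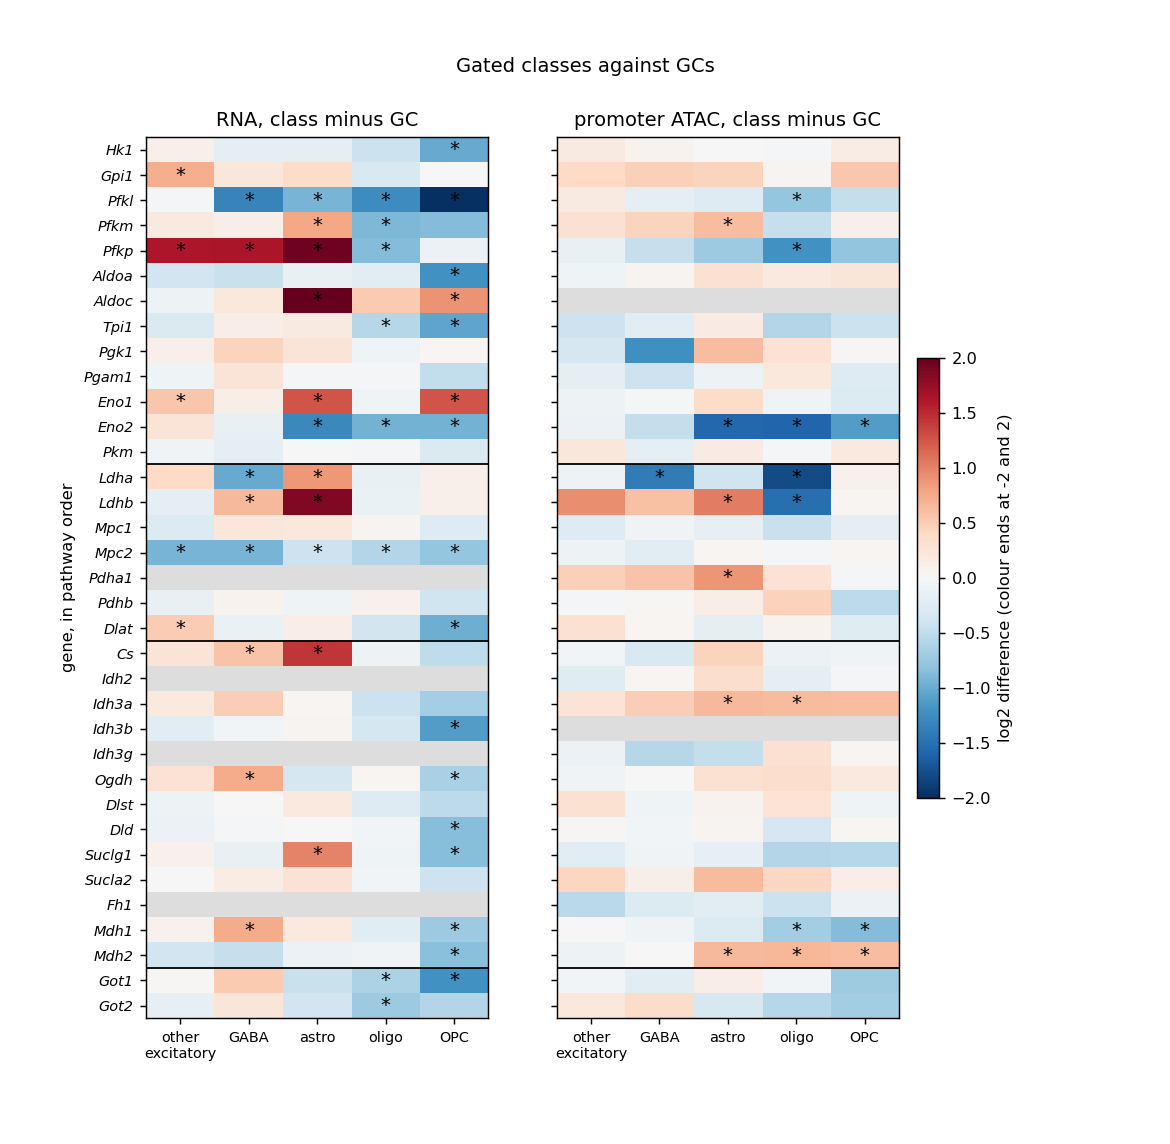
Log2 difference of each class from GCs within the same mice (colour, from -2 in blue to 2 in red; grey was not tested), for the RNA and the promoter accessibility of the 35 genes; an asterisk marks an adjusted p under 0.05 (edgeR). *Aldoc*, *Pfkp*, *Ldhb* and *Cs* stand out as higher RNA in astrocytes, and *Eno2* as lower in RNA and promoter of the 3 glial classes.

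Among neurons, other excitatory neurons had 4 genes higher and 1 lower than GCs, where 16.1% and 21.8% of all genes were. *Pfkp* was 92.1 to 99.3 CPM there in WT, above the GC level of 24.6 to 39.5 CPM, and was higher in all 8 mice (1.62 ± 0.19, adjusted p = 2.16e-10, edgeR). *Gpi1* (0.72 ± 0.17), *Eno1* (0.56 ± 0.21) and *Dlat* (0.51 ± 0.15) were higher. GABAergic neurons had 5 genes higher and 3 lower, where 16.4% and 23.3% of all genes were. *Pfkp* (1.63 ± 0.25), *Ogdh* (0.75 ± 0.15), *Mdh1* (0.74 ± 0.17), *Ldhb* (0.65 ± 0.24) and *Cs* (0.57 ± 0.23) were higher and *Pfkl* (-1.33 ± 0.37), *Ldha* (-1.0 ± 0.36) and *Mpc2* (-0.93 ± 0.18) lower. *Pfkp* thus was above the GC level in both other neuronal classes, and the *Pfkp* share of phosphofructokinase UMIs was 21.9 and 26.8 points above that of GCs (exact sign-flip p = 0.00781 each, adjusted p = 0.0820). In GABAergic neurons the shares of WT F1, F2, M1 and M2 rested on only 6, 7, 2 and 10 phosphofructokinase UMIs.

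*Mpc2*, which forms the mitochondrial pyruvate carrier with *Mpc1*, was called lower than in GCs in each of the 5 classes compared, in a fit over both genotypes. GCs read 56.8 to 67.1 CPM in WT and 150 to 193 CPM in V321L mice, and other excitatory neurons read 42.5, 30.4, 33.1 and 34.0 CPM and 57.1, 102, 87.8 and 106 CPM, below GCs in all 8 mice (-0.92 ± 0.14, adjusted p = 1.41e-07, edgeR). In oligodendrocytes the difference was -0.59 ± 0.17 and in OPCs -0.77 ± 0.21. Oligodendrocytes were above the GCs of the mouse in 2 of 8 mice and OPCs in 4 of 8. WT OPCs read 68.6 to 128 CPM, on 12 UMIs, above all WT GCs. V321L OPCs read 60.1 to 114 CPM, below all V321L GCs. The lower value in OPCs thus came from the V321L mice, and the genotype-by-class term was not called (-0.83, adjusted p = 0.442, edgeR). *Mpc1* was called in none of the 5.

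Oligodendrocytes had no gene higher and 8 lower than GCs, where 23.6% and 30.3% of all genes were: *Pfkl* (-1.26 ± 0.35), *Eno2* (-0.95 ± 0.29), *Pfkm* (-0.90 ± 0.32), *Pfkp* (-0.87 ± 0.38), *Got2* (-0.73 ± 0.23), *Got1* (-0.64 ± 0.26), *Mpc2* and *Tpi1* (-0.57 ± 0.22). The count was 3 with the scaling of DESeq2, 4 without V321L F2 and 1 without V321L M1. OPCs had 2 genes higher and 14 lower, where 17.9% and 27.6% of all genes were, with a median of -0.65 over the 31 and -0.23 over all genes. *Eno1* (1.25 ± 0.31) and *Aldoc* (0.89 ± 0.33) were the higher ones, and *Pfkl* (-2.01 ± 0.52), *Aldoa* (-1.21 ± 0.24), *Got1* (-1.20 ± 0.38) and *Idh3b* (-1.11 ± 0.33) the lowest. After free RNA subtraction *Aldoc* in OPCs was at -0.26 and not called (adjusted p = 1.0). The 16 calls became 9 without V321L F1, 8 without V321L F2 or M1 and 7 with library sizes alone. OPCs numbered 12 to 56 per mouse.

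Glia as a whole (the mean of astrocytes, oligodendrocytes and OPCs against the mean of the 3 neuronal classes) had 4 genes higher and 11 lower, where 27.4% and 32.4% of all genes were. *Aldoc* (1.59 ± 0.18, adjusted p = 1.41e-10, edgeR), *Eno1* (0.58 ± 0.19), *Ldha* (0.48 ± 0.21) and *Ldhb* (0.45 ± 0.16) were higher, and after free RNA subtraction *Ldhb* reversed to -2.29, which was not called (adjusted p = 0.180). *Eno2* (-1.09 ± 0.20), *Pfkl* and *Got1* (both -0.95), *Pfkp* (-0.76 ± 0.20), *Ogdh* (-0.66 ± 0.11) and *Got2* and *Idh3a* (both -0.59) led the lower ones. These means hide differences between the glial classes. The V321L median of *Pfkp* was 157 CPM in astrocytes, 26.9 CPM in oligodendrocytes and 35.8 CPM in OPCs, against 34.7 CPM in GCs. That of *Ldhb* was 363, 103 and 128 CPM in these glial classes, against 106 CPM in GCs. With WT mice alone only 2 of the genes could be tested in these class comparisons, so that their calls rest mainly on the V321L libraries.

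Of the other genes of the pathways 25 were tested between astrocytes and GCs, 13 were higher and 5 lower, where 25.7% of all genes were higher and 29.6% lower. *Me1*, the cytosolic malic enzyme (3.73), *Slc2a1*, the glucose transporter of glia and vessels (3.24), and *Idh1*, the cytosolic isocitrate dehydrogenase (3.04), were the highest. *Slc16a7* (-3.66), the neuronal glucose transporter *Slc2a3* (-2.85) and *Pdk3*, a pyruvate dehydrogenase kinase (-1.52), were the lowest.

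The third comparison read the chromatin of the same nuclei, as ATAC counts in called peaks. A peak counted for a gene when it overlapped the span from its first to its last start site, extended by 1 kb on each side. This span was 39367 bases in *Hk1*, 15878 in *Pfkm*, 12609 in *Mpc1* and 6535 in *Eno1*. The promoter values of these genes can therefore also hold peaks that lie away from any start site. Of the 35 promoters 34 had such a peak in all 8 libraries, and *Aldoc* lacked it in V321L M2. In GCs edgeR called 0 of the 34 between genotypes, where it called 0.00768% of 13028 genes (1 gene). At an unadjusted p under 0.05 there were 4 of the 34, where 1008 of the 13028 genes were. The 4 were *Mpc1* (-0.31), *Tpi1* (-0.43), *Eno1* (-0.20) and *Mdh2* (-0.20), all toward V321L being lower. The lowest adjusted p was 0.461. The promoter differences lay between -0.43 and 0.32, with a median of -0.06 and standard errors of at most 0.21. The *Tpi1* promoter, shown above, read 56.0, 91.4, 75.1 and 87.7 CPM in WT and 64.2, 64.6, 45.5 and 59.7 CPM in V321L GCs, with overlapping groups and a 95% interval of -0.73 to -0.12 for the log2 difference. The *Aldoa* promoter read 113, 117, 112 and 122 CPM and 112, 112, 97.1 and 125 CPM, with an interval of -0.26 to 0.09. For 31 of the 34 genes the RNA difference was above the upper end of the interval of the promoter difference. This count was not made over all genes, of which 39.3% rose in RNA in GCs, so it does not set the listed genes apart. Across the genes the RNA and promoter differences had r = -0.24, given as a description.

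Between classes the promoters did differ, with 33 of the 35 tested over 12085 genes. The *Eno2* promoter was less accessible than in GCs in astrocytes (-1.57 ± 0.34, adjusted p = 8.23e-05, edgeR), oligodendrocytes (-1.58 ± 0.35) and OPCs (-1.12 ± 0.40), the direction of its RNA in the same 3 classes. The *Ldhb* promoter was more accessible in astrocytes (1.03 ± 0.30, adjusted p = 0.00483, edgeR) and less in oligodendrocytes (-1.50 ± 0.42). In astrocytes 5 promoters were higher and 1 lower, where 11.2% and 14.5% of all promoters were, and *Pdha1* (0.89), *Idh3a* and *Mdh2* (both 0.65) and *Pfkm* (0.62) were the others that were higher. In oligodendrocytes 2 were higher and 6 lower, where 9.23% and 15.2% were. *Ldha* (-1.79 ± 0.35), *Pfkp* (-1.22 ± 0.33), *Pfkl* (-0.77 ± 0.29) and *Mdh1* (-0.69 ± 0.20) were among the lower ones there.

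In OPCs the *Mdh2* promoter was higher and those of *Eno2* and *Mdh1* lower, where 4.47% and 8.75% of all promoters were. In GABAergic neurons the *Ldha* promoter was lower (-1.39 ± 0.42, adjusted p = 0.0317, edgeR) and none was higher, where 4.0% and 1.13% of all were. In other excitatory neurons edgeR called 0 of the 33, where 1.28% of all were higher and 0.885% lower. At an unadjusted p under 0.05 there were 2 of the 33, where 1135 of all 12085 were. For glia against neurons 2 promoters were higher, *Pgk1* (0.83 ± 0.24) and *Mdh2* (0.68 ± 0.12), and 6 lower, with *Eno2* at -1.23 ± 0.24, where 12.6% and 18.1% of all were. *Aldoc*, whose RNA set astrocytes apart most, had a promoter that could not be tested because of the missing peak in V321L M2.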

How the data were processed

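The deposited matrices hold counts that the authors made with Cell Ranger ARC (mm10), without normalization, for every barcode: RNA UMIs per gene and ATAC counts per peak, with peaks called in each library. Files of gene and peak positions and of barcodes served to name the rows. Barcodes were kept as nuclei above 500 UMIs, 250 genes and 500 ATAC counts and below the upper limits the study gives for UMIs, genes and mitochondrial share, and likely doublets (a Scrublet score in scanpy 1.11.5 above the library mean + 2 SD, 49 to 162 per library) were removed. A nucleus was gated into a class when at least 3 UMIs from at least 2 markers of the class were present, at least 2 times those of any other list; no marker is a gene of energy metabolism, and radial glia can pass the astrocyte gate. Marker lists of vascular cells, Cajal-Retzius cells and neuroblasts served only to leave nuclei out. The 4964 nuclei that passed no gate or passed one of these were not used. They were 3640 of 9442 WT nuclei and 1324 of 6918 V321L nuclei, so a larger part of the shallower WT libraries was left out.

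Counts were summed per mouse and class (at least 10 nuclei in every mouse) and tested in edgeR 4.0.16 (R 4.3.3) by quasi-likelihood after TMM scaling and filterByExpr, with p adjusted after Benjamini-Hochberg over all tested genes and a threshold of 0.05. Printed CPM are plain shares of the summed UMIs. Class comparisons had mouse as a term. DESeq2 1.42.0 was the second tool, and isozyme shares were compared by exact tests over mice. The free RNA share of a class is the median, over the marker lists of other classes, of the share of the list in the class divided by its share in free RNA. The tests were tested on simulated data. Each library is a separate mouse, and counts limit precision only through the UMIs given; floors of 3 UMIs cover counting error only.

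Replicate numbers were not treated as pairs in the main fits. Same-numbered WT and V321L GCs had correlated deviations of 0.05, 0.26, -0.09 and 0.02 for F1, F2, M1 and M2. Those of differently numbered mice lay between -0.29 and 0.26, so these values do not decide whether the numbers pair the mice. The genes and lists were chosen with earlier results of these data known. The fixed rule for values in every mouse took the 3 largest rises, the 3 largest falls or smallest rises and the isozyme groups; further per-mouse values were chosen after they were seen. Alternatives changed the scaling, the low-count filter, the tool, sex as a covariate, the replicate block, the mice included, thinning to 1000 UMIs, the upper limits, a mitochondrial limit of 0.5%, doublets, the gate, free RNA and the promoter window. Tables and plots were made with pandas 2.3.3, scipy 1.17.1, numpy 2.4.6 and matplotlib 3.10.9 under Python 3.11.15.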

Additional observations from a re-analysis of the deposited data

Results flagged for a closer look

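Among the GC levels of the 35 genes, 3 of 70 groups of 4 mice held a mouse far from the other 3, where chance alone gives about 1 in 20 groups. *Pfkl* read 23.7 CPM in WT M1 against 8.49 to 10.8 CPM in the other WT mice, and *Ldhb* read 30.3 CPM in WT M1 against 15.3 to 16.1 CPM. *Aldoc* read 3.14 CPM in WT F1 against 5.66 to 5.91 CPM. All 3 lay below the lowest V321L mouse.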

How the results depend on the processing

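In GCs 680 of 698 single values kept their direction and side of the threshold, 5 lost the call, 12 gained it and *Ogdh* reversed to 0.0892 with library sizes alone; the number called stayed between 30 and 31 when a mouse was left out, and the replicate block gave 30. The block gave 23, 5, 16 and 3 calls in other excitatory neurons, GABAergic neurons, astrocytes and oligodendrocytes and changed no count by over 1.5 times. In other classes calls depended on depth and free RNA, and the causes of the changes below were not tested. For genotype, thinning left 1 call among 4 tested listed genes in other excitatory neurons. GABAergic neurons had 15 among 35 without a low-count filter, 13 among 19 without upper limits and 3 among 5 with a stricter gate. After free RNA subtraction they had 0 among 1, astrocytes 4 among 7 and oligodendrocytes 0 among 1. Oligodendrocytes had 15 among 35 without a filter. Without it 889 of 16055 genes rose in GABAergic neurons and 1378 of 16387 in oligodendrocytes. The other counts stand without a share of all genes and describe the listed genes alone. The number tested also moved when a mouse was left out. Against GCs, the 5 calls of other excitatory neurons became 3 when thinned, 8 after free RNA subtraction and 2 in V321L alone; the 8 of GABAergic neurons became 5 without a filter, 5 when thinned and 7 with a stricter gate (3 higher, 4 lower); the 8 of oligodendrocytes became 3 with DESeq2 size factors; and the 16 of OPCs became 9 with those size factors, 7 with library sizes alone, 6 after free RNA subtraction and 10 in V321L alone. Glia against neurons fell from 15 to 6 after free RNA subtraction. In WT alone, where 2 genes were testable, the counts were 0, 1, 0, 0 and 0 in other excitatory neurons, GABAergic neurons, astrocytes, oligodendrocytes and OPCs, and 1 for glia against neurons. Free RNA subtraction reversed *Eno1* in GABAergic neurons (-3.32), *Aldoc* in OPCs (-0.26) and *Ldhb* in glia against neurons (-2.29). Promoter calls against GCs became 1 in other excitatory neurons with DESeq2 size factors, and 0 in GABAergic neurons with those or library sizes alone. Leaving out a mouse gave 18 to 27, 3 to 8, 12 to 19 and 1 to 7 genotype calls in other excitatory neurons, GABAergic neurons, astrocytes and oligodendrocytes, and 4 to 6, 5 to 9, 10 to 14, 1 to 9 and 8 to 17 calls against GCs in these and OPCs (5 in GABAergic neurons without V321L M2), 10 to 17 for glia against neurons, 0 to 1 for the genotype difference of other excitatory neurons and 0 to 0 for those of the other classes, the GC promoters and the isozyme shares. The limit of exact tests over so few mice, given above, holds for the isozyme shares here too. Thinning in glia and the 0.5% mitochondrial limit outside GCs and other excitatory neurons were not run because a mouse kept under 10 nuclei.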
